A study of Homo sapiens with 2 samples.

Results

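The nuclear genes for subunits of respiratory chain complexes II to V were followed in RNA-seq data from HEK293 Flp-In T-Rex cells. They comprise 45 genes, chosen by name, of 59026 genes in the deposited tables that could be matched to GENCODE v44. Of these, 4 code for complex II (SDHA to SDHD), 9 for complex III (the UQCR genes and CYC1), 15 for complex IV (the COX genes) and 15 for complex V (the ATP5 genes). The remaining pair, CYCS and ATP5IF1, code for the electron carrier cytochrome c and for the inhibitor of the ATP synthase, which are not subunits of these complexes. The counts of every transcript of a gene were summed per library, and 43 of the 45 genes held at least 1 normalised count in both libraries. COX4I2 and COX6A2 were at 0 in both.

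Total RNA had been depleted of ribosomal RNA and sequenced without any treatment of the cells. HEK293 is an established line from human embryonic kidney, and its Flp-In T-Rex derivative carries a site for tetracycline-controlled insertion of a transgene. There was 1 group of 2 libraries, replicate 1 and replicate 2, and the labels do not say whether they came from separate cultures, so the spread between them may be technical. No comparison between conditions was possible. A two-sided sign-flip test on 2 libraries cannot go below a p of 0.5, so no test was run.

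Complex II, succinate dehydrogenase, passes electrons from succinate to ubiquinone and is encoded by nuclear genes alone. Complex III, the cytochrome bc1 complex, moves electrons on to cytochrome c, and complex IV, cytochrome c oxidase, hands them to oxygen. The proton gradient built by the chain drives complex V, the ATP synthase. Complexes III, IV and V each combine nuclear subunits with subunits made inside mitochondria from mitochondrial DNA, and several nuclear subunits of complex IV exist as tissue-specific versions encoded by separate genes.

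Replicate 1 held 25158962 estimated counts and replicate 2 held 27143860. Across transcripts the chi-square statistic of the counts was 27.3 times its degrees of freedom, so the libraries differed by more than sampling noise. Of the markers listed for HEK293 cells, VIM and NEFL were high, with length-normalised levels of 307 and 22.3, LHX1 and PAX2 were low at 1.94 and 0.694, and NEFM was at 0.281. The muscle and heart list had 3 of 7 genes above 0 in both libraries, with TNNI3 the highest at 8.28, MYH7 at 0 and a median of 0.0174 in replicate 1 and 0.0327 in replicate 2. The testis list had 2 of 5 genes above 0 in both libraries, at most 0.302. In the liver and blood lists ALB and PTPRC were at 0, and HBB was at 20.6.

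The values are given on 2 scales. The normalised count is the authors' value, an estimated count divided by a size factor per library, and it serves to compare a gene between the libraries. The length-normalised level divides each transcript's estimated count by its GENCODE v44 length and scales the library to 1000000, and it serves to compare genes. Groups or genes were called different when the 2 libraries ranked them alike and their means lay further apart than both SDs added together. As values of bulk RNA, neither scale can tell apart more cells that express a gene from more RNA per cell.

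The 45 genes together held 0.757% and 0.685% of the length-normalised total in replicates 1 and 2, which is 0.721% ± 0.0508 (SD, n = 2). The 43 subunits had median levels of 144 and 135 in replicates 1 and 2 (139 ± 6.30, SD, n = 2). Protein-coding genes that reached 1 normalised count in each library had a median of 7.62. COX7C had the highest level, 595 and 477 in replicates 1 and 2, followed by UQCRH with 498 and 442 and COX6B1 with 462 and 471. With ATP5F1B, COX6A1, ATP5F1A, UQCRQ, ATP5MF, ATP5PO and COX8A they made up the top 10, which held 48.8% of the summed level of the subunits. The order within this list was loose. It also depended on how length was treated. In normalised counts ATP5F1B and ATP5F1A had means of 15448 and 15224, above COX7C with 5621. With division by the length of the canonical transcript, UQCRH and COX6B1 were at 551 and 454, above COX7C at 364. UQCRQ was then at 65.8. Of the 44 pairs of neighbours in the order of all 45 genes, 6 were called different, namely COX6B1 over ATP5F1B, ATP5F1B over COX6A1, UQCRFS1 over ATP5F1E, and the steps from COX7A2L down to COX7A1, COX6B2 and COX4I2.

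**Figure D1:**
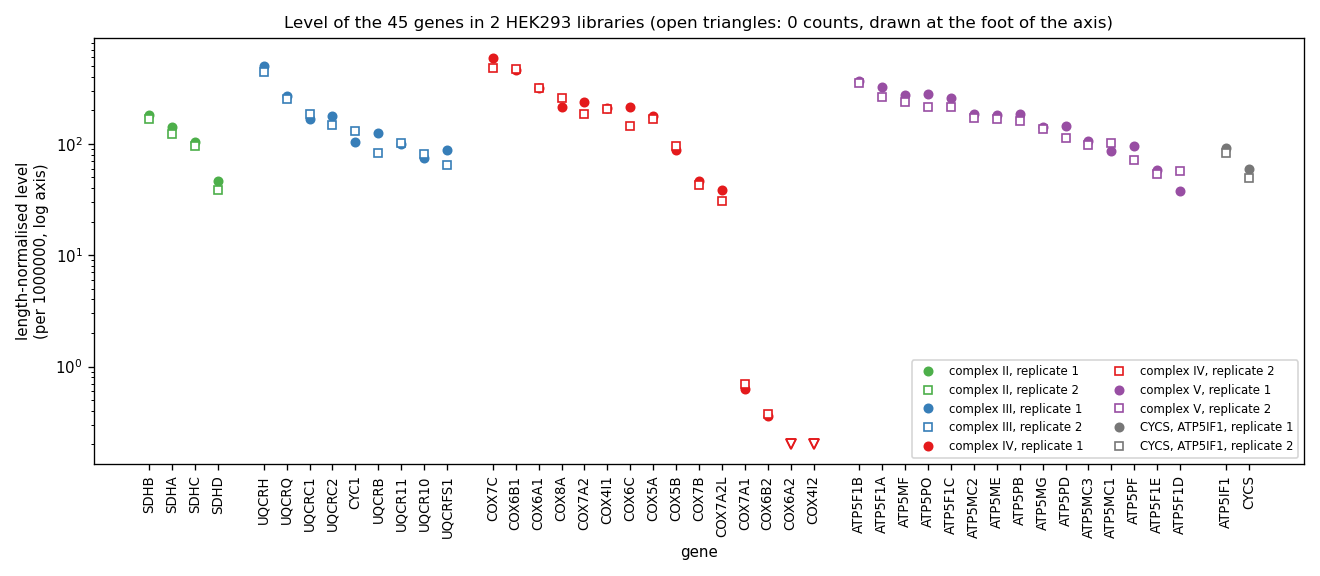
Length-normalised level of each of the 45 genes (log axis, per 1000000), with filled circles for replicate 1 and open squares for replicate 2, ordered within each complex. Most genes lie within a band from 30.9 to 595, whereas COX7A1, COX6B2, COX6A2 and COX4I2 lie at 0.699 or lower.

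Most of these genes code for small proteins. The median protein length was 114 amino acids, from 51 to 664, and 34 of the 45 proteins had fewer than 200. The leading transcript, the one with the highest count, had a median length of 745 nt over the 43 genes above the minimum, against 2971 nt over 15537 protein-coding genes. The GC content of the leading transcript had a median of 47.8%, close to the 49.3% of those genes, but it ran from 36.5% in UQCRB to 69.5% in ATP5F1D.

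In complex II, SDHB had the highest length-normalised level and SDHD the lowest. SDHB, the iron-sulphur subunit, was at 182 in replicate 1 and 167 in replicate 2. SDHA, the flavoprotein that holds the succinate site, was at 142 and 122. The membrane anchors SDHC and SDHD were at 104 and 95.7 and at 46.1 and 38.4. SDHB thus lay 4.14-fold above SDHD on the length-normalised scale, and the order of the genes was the same in both libraries. SDHB did not lead on other scales. SDHA was above it in normalised counts, with 7163 and 6992 against 3354 and 2910, and SDHC was above it per kb of coding sequence, with 6033 and 5159 against 3979 and 3451. Of the level of SDHB 25.2% lay on protein-coding transcripts, against 78.2% for SDHA. Part of the SDHA sequence also occurs in other genes of GENCODE v44. Of the 50-nt words of its leading transcript 73.6% were found elsewhere, and 67.2% in a single gene without a symbol, ENSG00000286001. Whether the annotation counted held that gene is not given. How far the SDHA count depends on the division of reads is therefore not known. SDHAP3, the pseudogene of SDHA that held counts, had 233 and 261 normalised counts beside 7163 and 6992 for SDHA.

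SDHB is also shown for its promoter, because the window from 250 bases before to 50 after its start holds all 3 motifs searched. The stretches below are from RefSeq (GRCh38.p14) and lie on the minus strand of chromosome 1, at chr1:17054215-17054243, chr1:17054143-17054171 and chr1:17054005-17054033. Capitals mark the match.
SDHB, NRF1 core: aagccaaatggGCATGCGccgctactgcg
SDHB, ETS core: cacccgggaaaCCGGAAGccgcctcccac
SDHB, YY1 core: cgtcaggagccAAGATGGcggcggtggtc
NRF1, the ETS factor GABPA and YY1 are transcription factors known to regulate genes of the respiratory chain. A promoter was found for 35 of the 45 genes. The NRF1 core GCATGCG, searched on both strands, occurred in 9 of them (25.7%), against 4.13% of 27305 promoters of the same length and 5.14% of 15319 promoters of protein-coding genes. The ETS core CCGGAAG occurred in 14 (40.0%), against 10.7% and 14.4%. The YY1 core AAGATGG occurred in 9 (25.7%), against 6.06% and 6.43%. ATP5ME and ATP5PF also held all 3. COX5B, COX6A1 and SDHD held the NRF1 and ETS cores. These are matches of letters, not evidence of binding.

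In complex III the levels ran from UQCRFS1 to UQCRH, a 6.17-fold range. UQCRH, the hinge protein beside cytochrome c1, was at 498 in replicate 1 and 442 in replicate 2, and UQCRQ at 269 and 252. The core proteins UQCRC1 and UQCRC2 were at 168 and 186 and at 179 and 149. UQCRC1 was therefore higher in replicate 2 and UQCRC2 higher in replicate 1. CYC1, the cytochrome c1 gene, was at 105 and 129, and UQCRB at 126 and 82.8. The small subunits UQCR11 and UQCR10 were at 99.2 and 101 and at 74.9 and 80.6.

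UQCRFS1, the Rieske iron-sulphur protein, had the lowest mean level of complex III, 87.4 and 65.0, although its normalised counts of 7475 and 5456 were among the higher ones. Its place rests on length. The GENCODE v44 model of its single transcript is 3086 nt long and is a later version than the one counted, whose length was not used here. Per kb of coding sequence UQCRFS1 held 9060 and 6614 normalised counts, a mean of 7837 ± 1730 beside a complex III median of 7151 ± 759 (SD, n = 2 each).

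UQCRFS1 was also the only one of the 45 genes whose annotated pseudogenes held over 10% of the counts of gene and pseudogenes together. The counts of UQCRFS1P1 went from 747 normalised counts in replicate 1 to 1607 in replicate 2, and from 9.08% to 22.8% of the sum (15.9% ± 9.66, SD, n = 2). It exceeded 10% in replicate 2 alone. UQCRFS1P1 carries 15.5% of the 50-nt words of UQCRFS1, and the gene and its pseudogene moved in opposite directions between the libraries. UQCRFS1 alone differed by -0.45 on the log2 scale (replicate 2 minus replicate 1) and the sum with its pseudogenes by -0.22. In all, 31 of the 45 genes have annotated pseudogenes, 173 together, of which 70 were above 0. For 24 of the 31 genes the share was under 1%. The same shares over all genes were not counted, so these numbers do not show whether the 45 genes stand out.

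UQCRH has a near-identical intronless copy, UQCRHL, and the stretches below are shown because 2 of 30 bases set them apart. The coding sequences differ at 4 of 273 bases and the proteins are 96.7% identical. The first lies in exon 3 of UQCRH on the plus strand at chr1:46310211-46310240 and the second in exon 1 of UQCRHL on the minus strand at chr1:15807483-15807512 (GRCh38, GENCODE v44). Capitals mark the bases that differ.
UQCRH: ccgggagcggctagagctctGtgatgagcG
UQCRHL: ccgggagcggctagagctctAtgatgagcA
The normalised counts of UQCRH were 7761 and 6767, and those of UQCRHL 127 and 98.0. Reads from the shared stretches can be assigned to either.

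The 13 expressed genes of complex IV covered the widest range. COX7C was at 595 in replicate 1 and 477 in replicate 2, COX6B1 at 462 and 471, COX6A1 at 317 and 317, and COX8A at 216 and 258. COX7A2 was at 237 and 186, COX4I1 at 211 and 206, COX6C at 213 and 145 and COX5A at 179 and 168. Below these came COX5B with 88.0 and 94.9, COX7B with 46.5 and 42.8, and COX7A2L with 38.1 and 30.9. COX8A was higher in replicate 2 and COX6C, COX7A2 and COX7C higher in replicate 1. COX7B and COX7A2L have long leading transcripts of 2444 and 2282 nt in GENCODE v44, and without division by length they held 2836 ± 265 and 1839 ± 364 normalised counts (SD, n = 2 each), beside 2626 ± 440 for COX7A2.

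Complex IV is where the paralogues with tissue-specific expression lie, and each family was carried by its widely expressed member. COX4I1 held 4089 and 3867 normalised counts, and COX4I2, known from lung and from the response to low oxygen, had 0 counts in both libraries. With a floor of 3 estimated counts per library on its canonical transcript, COX4I1 lay at least 1232-fold higher. COX6A1 held 4729 and 4647, against 0 for COX6A2, the version of heart and skeletal muscle, and lay at least 1031-fold higher with the same floor. COX6B1 held 5432 and 5441, and COX6B2, known from testis, held 13.8 and 16.7. The length-normalised ratio of COX6B1 to COX6B2 was 1281 in replicate 1 and 1264 in replicate 2. COX7A1, the muscle version of COX7A, held 6.35 and 7.42 normalised counts. COX7A2 lay 317-fold above COX7A1 in length-normalised level, and COX7A2L, which joins complexes III and IV in supercomplexes, lay 51.8-fold above it. All these pairs were called different, but the size of some ratios depended on how length was treated. The log2 ratio of COX7A2L to COX7A1, 5.69 as reported, was 8.06 in normalised counts, 7.54 per kb of coding sequence and 4.78 with effective length. That of COX6B1 to COX6B2, 10.31, was 8.48 in normalised counts, 8.51 per kb of coding sequence and 11.08 with effective length. The proteins of these pairs are at most 64.2% identical.

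COX7A2 lay 6.22-fold above COX7A2L in replicate 1 and 6.02-fold in replicate 2, but this ratio depended on length. With normalised counts the log2 ratio fell from 2.62 to 0.51 and was no longer called, and per kb of coding sequence it was 0.97.

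**Figure D2:**
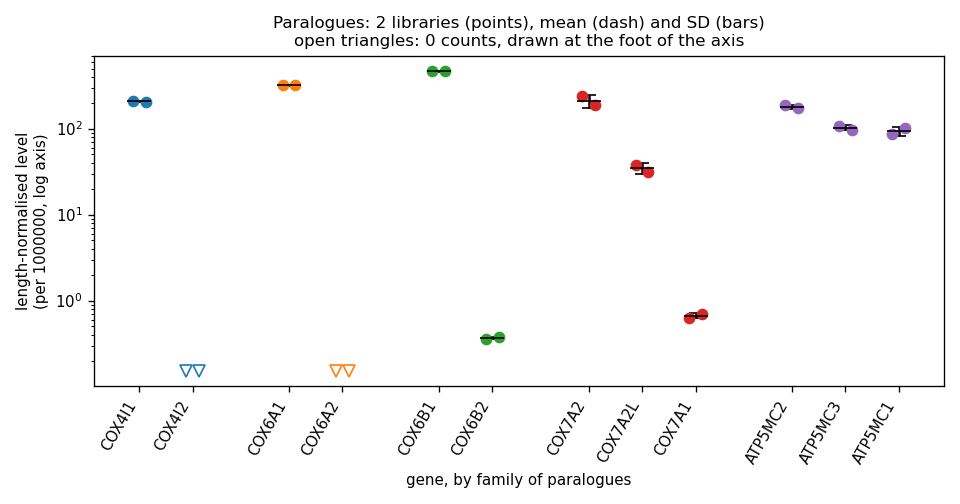
Length-normalised level (log axis, per 1000000) of the paralogues of 5 families, with a point per library, a dash at the mean and bars of 1 SD. In the COX4, COX6A, COX6B and COX7A families a single gene or pair holds nearly all of the level, whereas the 3 ATP5MC genes lie between 85.7 and 187.

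The subunits of complex V were described by their place in the enzyme. In the catalytic head, ATP5F1B, which carries the catalytic sites, was at 368 in replicate 1 and 354 in replicate 2, and its partner ATP5F1A at 327 and 265. ATP5F1C, of the rotating shaft, was at 258 and 215. ATP5F1D and ATP5F1E, at the foot of the shaft, were at 38.0 and 56.5 and at 58.2 and 53.5. ATP5F1A and ATP5F1B, which are present in several copies per enzyme, lay above the 3 single-copy subunits in both libraries on this scale. For ATP5F1A this depended on length. It was at 155 against 162 for ATP5F1C with effective length, and at 108 against 188 with the length of the canonical transcript. Per kb of coding sequence ATP5F1A stayed above ATP5F1C, with means of 9160 and 5660 normalised counts. Relative to ATP5F1C, the mean ratio was 1.25 ± 0.0261 for ATP5F1A, 1.54 ± 0.154 for ATP5F1B, 0.205 ± 0.0814 for ATP5F1D and 0.237 ± 0.0161 for ATP5F1E (SD, n = 2 each). The place of ATP5F1E turns with length. Per kb of coding sequence it held 19327 and 16172 normalised counts, the highest of complex V, against 6344 and 4977 for ATP5F1C.

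The stalk genes ATP5PO, ATP5PB, ATP5PD and ATP5PF were at 282 and 212, 184 and 161, 143 and 113, and 95.7 and 71.1 in replicates 1 and 2. All 4 were lower in replicate 2. Of the genes for the membrane part, ATP5MF was at 273 and 236, ATP5ME at 180 and 166 and ATP5MG at 142 and 135. The median level was 236 ± 30.3 for the head, 151 ± 19.0 for the stalk and 156 ± 7.77 for the membrane part (SD, n = 2 each). The head was called higher than either of the others, and with effective length the medians were 155, 96.9 and 118. With the length of the canonical transcript no call was made, and the head was not above the stalk. ATP5F1A, the middle gene of the head, was then at 108. The middle genes of the stalk, ATP5PF and ATP5PD, were at 115 and 147.

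The rotor ring of the ATP synthase is built from subunit c, which is encoded by 3 genes, ATP5MC1, ATP5MC2 and ATP5MC3. Their precursors have different targeting sequences that are cut off and the same mature protein, as shown by 77 shared amino acids at the C-terminus. The genes remain distinguishable at the level of RNA, since 57 of the 231 bases that code for the shared stretch are not the same in all 3. The stretches below are from exon 4 and hold the first bases of the shared stretch, which code for the same amino acids in all 3 genes. They lie at chr17:48895216-48895245 on the plus strand, at chr12:53669237-53669266 on the minus strand and at chr2:175179146-175179175 on the minus strand (GRCh38, GENCODE v44). Capitals mark the 11 positions that are not the same in all 3.
ATP5MC1: TCCCgGgacatTgaCacAgcAgccaaGttT
ATP5MC2: TCAAgGgacatCgaCacAgcAgccaaGttC
ATP5MC3: AGCAgAgacatTgaTacTgcTgccaaAttT

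All 3 genes were expressed. ATP5MC2 was at 187 in replicate 1 and 172 in replicate 2, ATP5MC3 at 107 and 97.3, and ATP5MC1 at 85.7 and 101. ATP5MC2 held 47.8% ± 1.98 of their summed level, ATP5MC3 27.3% ± 1.32 and ATP5MC1 24.9% ± 3.30 (SD, n = 2 each). ATP5MC2 was called higher than either of the others. The log2 ratio of ATP5MC3 to ATP5MC2, -0.81, was -2.57 with the length of the canonical transcript, and that of ATP5MC2 to ATP5MC1, 0.94, was 1.55 with protein-coding transcripts only. ATP5MC3 and ATP5MC1 were not called different, with a ratio of 1.25 in replicate 1 and 0.966 in replicate 2. The log2 ratio of this pair, 0.13, was 0.76 with normalised counts, where ATP5MC3 was called higher, and -1.24 with the length of the canonical transcript, which for ATP5MC3 is 2587 nt.

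CYCS was at 59.6 in replicate 1 and 49.3 in replicate 2, below CYC1 in both. Its leading transcript is 5432 nt long in GENCODE v44, and per kb of coding sequence the direction turned, with 8124 and 5090 normalised counts for CYCS against 3314 and 4112 for CYC1. The inhibitor gene ATP5IF1 was at 91.7 and 82.8, below the median of complex V in both.

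The medians of the complexes were then compared. Complex II had a median level of 123 in replicate 1 and 109 in replicate 2 (116 ± 9.77, SD, n = 2), complex III 126 and 129 (128 ± 2.38), complex IV 179 and 145 (162 ± 24.2) and complex V 180 and 161 (171 ± 13.2). Of the 6 pairs of complexes 4 were called different, with complexes IV and V each above II and III. Without COX4I2 and COX6A2 the median of complex IV was 189 ± 30.6, and the same 4 pairs were called.

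This order was tied to the way length was treated. With normalised counts not divided by length complex III was the highest, at 3631 ± 552, and 1 pair was called, complex III over complex IV. When the summed count of a gene was divided by the length of its canonical transcript, 0 of 6 pairs were called. An effective length gave 5 called pairs. Per kb of coding sequence, an alternative chosen after seeing the data, complex II was called lower than each of the others and complex IV higher than complex V, at 7800 ± 307 against 5917 ± 604, while complex III was called different from neither IV nor V. Protein-coding transcripts only also put complex IV above complex V, at 147 ± 17.9 against 107 ± 20.1, and complexes III and V were then not called different. For 23 of the 43 expressed genes the leading transcript had another version in GENCODE v44 than in the deposited tables, so that lengths can differ from those of the models counted.

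**Figure D3:**
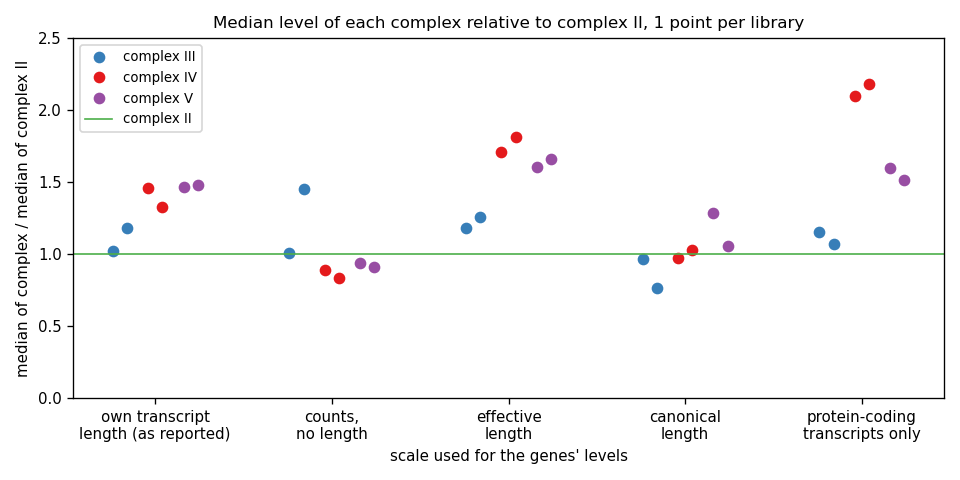
Median of complexes III, IV and V divided by the median of complex II (linear axis from 0), with a point for each library, for 5 ways of expressing the level of a gene. On the scale reported complexes IV and V lie between 1.33 and 1.48, with counts not divided by length they lie between 0.835 and 0.938, and with protein-coding transcripts only complex IV reaches 2.18.

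The subunits were set beside a chosen list of genes counted as assembly factors of complexes II to V and beside complex I. The 37 nuclear subunits of complex I, NADH dehydrogenase, had a median level of 73.4 ± 5.96 (SD, n = 2), from 17.1 for NDUFV3 to 246 for NDUFS5. The median of the 43 subunits of complexes II to V was 1.89-fold higher, which was called. The size of this difference depended on length. With canonical length the complex I median was 73.8, beside 97.9, 85.2, 97.9 and 115 for complexes II, III, IV and V. The 40 assembly factors had a median of 26.8 ± 0.969, and the subunits lay 5.20-fold higher. All 40 factors were detected, and 0 of 40 lay above the median subunit in length-normalised level. Without division by length some did not stay lower. LRPPRC and ATPAF1 held 6717 and 3884 normalised counts, above the median of every complex, at most 3631. Among those of complex II, SDHAF1 was the highest with 39.0 ± 5.45 and SDHAF2, which helps attach the flavin to SDHA, the lowest with 10.1 ± 1.29. For complex III these were UQCC2 with 77.3 ± 0.352 and LYRM7, a chaperone of the Rieske protein, with 6.95 ± 2.90. For complex IV they were COA1 with 80.0 ± 9.05 and COX19 with 3.74 ± 0.836. For complex V they were ATPAF1, a chaperone of the catalytic subunit ATP5F1B, with 55.2 ± 6.51 and TMEM242 with 5.85 ± 1.75.

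Further subunits lay outside the 45 genes. NDUFA4, now counted to complex IV, was at 92.1 ± 11.7, and the small ATP synthase subunits ATP5MK and ATP5MJ were at 164 ± 27.8 and 116 ± 19.0 (SD, n = 2 each). COX8C, at a level of 0.274, held 6.35 and 1.85 normalised counts and COX7B2 held 0 in both libraries.

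Subunits encoded by mitochondrial DNA differed from their nuclear partners in a way that depended on the complex. MT-CO1, MT-CO2 and MT-CO3, the catalytic core of complex IV, were at 1517 ± 65.0, 394 ± 11.4 and 718 ± 55.0, and their median was 4.43-fold that of the 15 nuclear genes of complex IV. MT-CYB of complex III was at 109 ± 1.48, or 0.856 times the nuclear median. This order depended on the scale. The nuclear median of complex III was 76.6 ± 15.2 with protein-coding transcripts only, under the level of MT-CYB. In normalised counts MT-CYB held 3424 ± 1.77, beside a nuclear median of 3631 ± 552. MT-ATP6 and MT-ATP8 of complex V were at 140 ± 27.2 and 19.5 ± 0.828, with a median of 0.468 times the nuclear one. MT-ATP8 and MT-ATP6 overlap, and how reads were divided between the pair is uncertain.

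Between the libraries 3 of the 43 expressed genes (6.98%) differed by more than 1.5-fold. The share was 24.4% of all 26370 genes that reached 1 normalised count in each library. Among genes with a mean of at least 100 the shares were alike, 3 of 41 (7.32%) against 7.66% of all such genes. ATP5F1D held 579 and 931 normalised counts in replicates 1 and 2, a difference of 0.68 on the log2 scale. COX6C held 2649 and 1766, a difference of -0.59, and CYCS held 2583 and 1619, a difference of -0.67. In all, 32 of the 43 genes were lower in replicate 2, with a median of -0.19, whereas 51.4% of all genes were lower in replicate 2 and their median was -0.02.

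The differences followed the base composition of the transcripts. Across 41 of the genes averaging at least 100 normalised counts, the log2 difference and the GC content of the leading transcript had a Pearson's r of 0.899 and a Spearman's rho of 0.875. Across 12660 genes of that level these were 0.761 and 0.816. Genes are not independent replicates, and all points share the same pair of libraries. Of the 23 genes with under 50% GC, 0 were higher in replicate 2, and their median was -0.34, beside -0.28 for all genes with such a GC content. The 18 genes with 50% or more had a median of -0.01, beside 0.17 for all genes, and 9 were higher in replicate 2. ATP5F1D has the highest GC content of the 43 and the largest rise. After the median difference of genes of like GC content was subtracted, an alternative chosen after seeing the data, 0 of 41 genes differed by more than 1.5-fold, against 2.43% of the 12660 genes. Of the 41 genes 31 were then lower in replicate 2, with a median of -0.06. The same share over all genes after this step was not counted. ATP5F1D was then at 0.24, COX6C at -0.28 and CYCS at -0.37. The source of the relation to GC content was not tested.

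**Figure D4:**
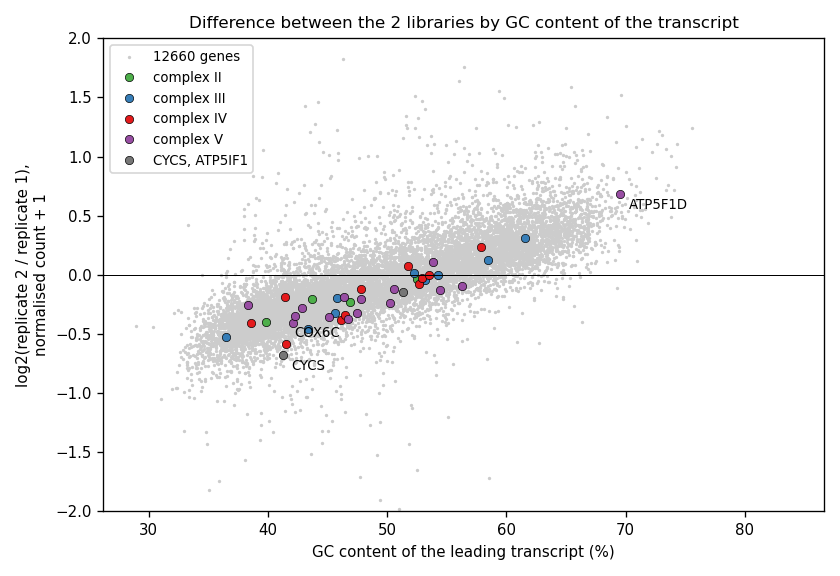
Log2 difference between the libraries (replicate 2 over replicate 1, normalised count + 1) against the GC content of the leading transcript, for genes averaging at least 100 normalised counts (grey, 9 of them beyond the axis) and for the 41 genes among them that belong to complexes II to V or are CYCS or ATP5IF1 (coloured). Coloured points rise from -0.52 for UQCRB at the left to 0.68 for ATP5F1D at the right, along the grey cloud.

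The counts of a gene were then split by the annotated class of its transcripts, and several of the 43 genes had most of theirs on transcripts not annotated as protein-coding. The number of such genes was near the share over all genes. Counts on transcripts annotated as protein-coding were under 50% of the total in 7 of the 43 genes (16.3%), against 12.2% of 15537 protein-coding genes. The median share was 89.8% for the 43 genes and 92.9% for those 15537. In 9 genes the share was 100%, among them UQCRFS1, CYCS, COX8A and ATP5F1E. Every listed transcript of these named genes is annotated as protein-coding, so no other share was possible for them. The share of such genes over all genes was not counted.

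ATP5PB, a stalk subunit, had the smallest share. Its protein-coding transcripts held 5.18% of the counts in replicate 1 (95% exact interval 4.53 to 5.88%) and 3.66% in replicate 2 (3.11 to 4.29%), intervals that cover counting error only. ATP5PB-201, whose coding sequence is not defined in GENCODE v44, held 60.2% and 43.2%. UQCRC1 had 12.7% ± 1.27 on protein-coding transcripts, 49.9% on transcripts with a retained intron and 37.3% on transcripts annotated for nonsense-mediated decay. For ATP5MG the protein-coding share was 34.0% and 26.8%, and ATP5MG-204, again without a defined coding sequence, held 62.8% and 66.7%. UQCRC2 had 42.3% and 44.8%, with UQCRC2-205, annotated for nonsense-mediated decay, at 54.8% and 52.3%. SDHB had 50.1% and 35.9%, UQCR11 45.5% and 46.9%, and UQCRQ 43.5% and 52.6%. SDHB and UQCRQ were therefore under 50% in a single library each. These shares are RSEM's division of reads that fit several transcripts, and the classes are those of GENCODE v44.

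**Figure D5:**
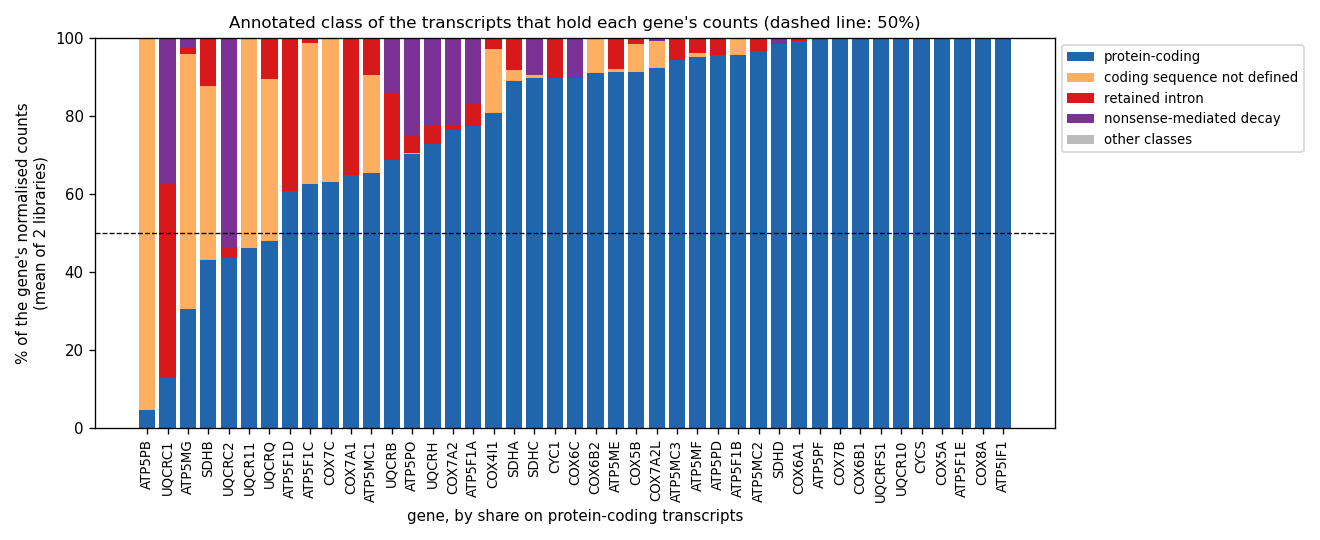
Share of each gene's normalised counts by annotated class of transcript, as the mean of the 2 libraries, for the 43 expressed genes in rising order of the protein-coding share. The 7 genes at the left, from ATP5PB at 4.42% to UQCRQ at 48.0%, lie under the dashed line at 50%.

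Both libraries had the same leading transcript in 38 of the 41 genes with several transcripts (92.7%), against 78.5% of 16735 genes, and in 37 of 39 with a total of at least 100, against 84.4%. It changed in UQCRB, UQCRQ and COX6B2. In UQCRB, UQCRB-202 held 40.4% and 29.7% and UQCRB-204 held 28.0% and 31.4%. In UQCRQ the protein-coding UQCRQ-202 held 41.4% and 49.99%, and UQCRQ-205, without a defined coding sequence, 45.9% and 37.0%. COX6B2 rests on the 13.8 and 16.7 normalised counts given above. Below the leader, single transcripts could appear in a single library. SDHA-213 had a normalised count of 0.0212 in replicate 1 but of 811 in replicate 2, while the SDHA total differed by -0.03 on the log2 scale.

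Reads could also have been shared with neighbouring genes. Of the 45 genes, 15 overlap a gene on the opposite strand, and for 7 of them that gene had a mean of at least 100 normalised counts. COX4I1 overlaps EMC8 (721 ± 8.87), COX6C overlaps VPS13B (1017 ± 53.7), ATP5PB overlaps WDR77 (1152 ± 30.8) and ATP5PF overlaps GABPA (1131 ± 396), the gene of the ETS factor named above. ATP5PD, ATP5ME and ATP5MF overlap KCTD2, MYL5 and CPSF4. The readthrough gene ATP5MF-PTCD1, on the strand of ATP5MF, held 638 ± 57.5. Whether the counting used strand is not given in the sources used here, so reads from stretches common to both transcripts can belong to either. Such stretches were not found for every pair. Of the 50-nt words of the leading transcript, 0 of 714 for COX4I1 and 0 of 380 for COX6C occurred in another gene. For ATP5PF 8.52% occurred in GABPA, for ATP5ME 9.45% in MYL5 and for ATP5MF 14.8% in ATP5MF-PTCD1.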

How the data were processed

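Per the labels, total RNA of HEK293 Flp-In T-Rex cells was depleted of ribosomal RNA and made into TruSeq libraries. Each deposited table listed transcripts with the authors' estimated counts and a normalised signal, EB-Seq-Normalised per the file headers, in which these counts had been divided by a library size factor (0.945 and 1.08). The submitters' processing notes name FastQC, STAR 2.7.0d, RSEM 1.3.3 and R 3.6.3. For these libraries the genome build, the annotation release and the strandedness are not given in the sources used here. Tables restricted to METTL8 transcripts were not used.

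Of 206696 transcripts, 202217 matched GENCODE v44 (GRCh38) by identifier without version, holding 96.9% and 96.8% of the counts. Counts were summed per gene. Levels were divided by GENCODE v44 transcript length and scaled to 1000000 per library, from which unmatched transcripts, having no length, stayed out. Log2 differences used a pseudocount of 1, without test. Genes entered the comparison between libraries at 1 normalised count or more in both. Sequences were compared by 50-nt words. Promoters came from RefSeq (GRCh38.p14). Intervals are exact (Clopper-Pearson). Depth was 25158962 and 27143860 estimated counts, and a count of 0 allows up to 3 counts. The calls of a library difference and of a leading transcript were tested on simulated data, and the rule on SDs was not. The simulated counts held sampling noise only, without the larger spread seen between these libraries. They therefore do not show how often such calls err in the real data. Python 3.11.15, pandas 2.3.3, scipy 1.17.1 and Biopython 1.88 were used.

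The 45 genes and the lists were chosen with earlier results of these data known. Genes named with values were the paralogue families, the highest and lowest gene per complex or list, CYCS, ATP5IF1, the mitochondrial subunits, and every gene past a limit on library difference, leading transcript, coding share or pseudogenes. The other genes of complexes II to V were named for completeness, and overlapping genes, SDHAP3, SDHA-213 and promoter examples after their values were seen. Alternatives covered length treatment, transcript class, totals, pseudocounts, minimum counts and each library left out.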

Additional observations from a re-analysis of the deposited data

How the results depend on the processing

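No paired analysis was possible because there is 1 group. With 2 libraries a mean moves by less than 1 SD when either is left out, so 36 of the 38 values from a single library say nothing about stability. The exceptions were the log2 ratio of ATP5MC3 to ATP5MC1, 0.13, at 0.32 without replicate 2 but -0.051 without replicate 1, and the number of genes with over 10% on pseudogenes, 0 without replicate 2 and 1 without replicate 1. Of 106 other alternatives, 9 of them chosen after seeing the data, 62 were counted as keeping a call or staying within the spread. For the bounds on COX4I1 to COX4I2 and COX6A1 to COX6A2, counts, canonical length and effective length were entered as kept without evaluating a call. That part of the tally says nothing about stability.

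Medians of complexes II, III, IV and V were 2993, 3631, 2585 and 2769 in normalised counts, 70.4, 85.7, 124 and 115 with effective length, 97.9, 85.2, 97.9 and 115 with canonical length, and 244, 269, 340 and 359 with a total without misc_RNA, ribozyme and snRNA. Protein-coding transcripts only gave 68.8, 76.6 and 107 for II, III and V, and leaving out COX4I2 and COX6A2 gave 189 for IV. Called pairs of complexes were 1 with normalised counts and 0 with canonical length. The share of the library was 0.601%, 0.561%, 0.615%, 0.538% and 1.52% with counts, effective length, canonical length, protein-coding transcripts and the reduced total. The complex I median was 1423 in counts, 50.8 with effective length and 57.6 with protein-coding transcripts. That of the assembly factors was 747, 15.5 and 15.0, and 18.2 with canonical length. The log2 ratio of COX7A2 to COX7A2L was 0.51 in counts, no longer called. For ATP5MC3 to ATP5MC1 it was 0.76 in counts, 0.70 with protein-coding transcripts and 0.70 per kb of coding sequence, called in each, and reversed to -0.19 with effective and -1.24 with canonical length. Genes over the fold limit were 0 at a limit of 2-fold, 5 with protein-coding transcripts and 0 with the GC trend subtracted. The UQCRFS1 pseudogene share was 39.9% by level. Causes were not tested, beyond the division by length that sets these alternatives apart.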
